A study of Mus musculus with 6 samples.

Results

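The genes described here serve the supply of peptides to MHC class I, and they were chosen by function and by name. They are Psmb5, which encodes a catalytic subunit of the constitutive proteasome, Psmb8, Psmb9 and Psmb10, which encode the inducible catalytic subunits of the immunoproteasome, Tap1 and Tap2, which encode the peptide transporter, Tapbp, which encodes tapasin, and Tapbpl, which encodes a tapasin relative. All 8 were among the 750 genes of the deposited NanoString table, and 7 of them were among the 379 genes that passed the study's low-signal filter and were tested. The gene left out by that filter was Tapbpl.

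RNA was counted in tumor endothelial cells (TECs) sorted as live CD45-CD31+ cells from subcutaneous B16-F10 tumors, which grow from a mouse melanoma line, at day 18 after injection of 250000 cells. There were 3 samples from Atg5BECKO mice (replicates 2, 3 and 5) and 3 from WT mice (replicates 1, 4 and 6), all C57Blk6. Atg5BECKO mice carried floxed Atg5, a gene of the autophagy machinery, with a tamoxifen-inducible Pdgfb-CreERT2 that acts in blood endothelial cells, and a tdTomato reporter at Rosa26. The WT mice were littermates without Cre, so that the presence of Cre and the loss of Atg5 cannot be told apart. Tamoxifen was injected on 5 consecutive days, and the mice of the study were 7 to 14 weeks old and of both sexes. No probe for Atg5 was in the table used here, so that the deletion itself could not be checked. The sources do not say whether a sample came from 1 mouse or from several, and the p-values below measure the spread between these samples only.

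MHC class I molecules present short peptides, most of them cut from cytosolic and nuclear proteins by the proteasome. Interferon induces alternative catalytic subunits that replace the constitutive ones in newly built proteasomes and change which peptides are made. The TAP transporter pumps peptides into the endoplasmic reticulum, where tapasin holds the class I chain next to the transporter and helps it to keep well-bound peptides. Endothelial cells carry class I at their surface and raise it under interferon.

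Psmb9, Tap1, Psmb8 and Tap2 lie next to each other in that order on mouse chromosome 17, inside the MHC between H2-DMb1 and H2-Ob. Tapbp is on the same chromosome but not beside them, between Zbtb22 and Rgl2. Psmb10 lies on chromosome 8, Psmb5 on chromosome 14 beside Psmb11, and Tapbpl on chromosome 6. RefSeq windows on GRCm38.p6, from 250 bases before to 50 bases after the start of transcription, were at hand for 6 of the 8 genes. The start sites of Psmb9 and Tap1 point away from each other with 225 bases between them, and their windows share 275 bases at chr17:34187306-34187580, each the reverse complement of the other. The window of Tap1 is therefore shown for both genes, that of Psmb8 because it follows Tap1 on the chromosome, and that of Psmb5 as the constitutive counterpart. Capitals mark matches to the motifs named in the next paragraph.
Tap1, chr17:34187306-34187605, plus strand: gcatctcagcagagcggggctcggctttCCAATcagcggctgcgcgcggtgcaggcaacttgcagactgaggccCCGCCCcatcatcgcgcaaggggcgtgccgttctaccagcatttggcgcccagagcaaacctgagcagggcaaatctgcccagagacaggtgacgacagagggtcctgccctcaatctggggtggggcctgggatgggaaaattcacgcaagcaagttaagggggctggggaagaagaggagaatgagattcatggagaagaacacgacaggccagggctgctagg
Psmb8, chr17:34197945-34198244, plus strand: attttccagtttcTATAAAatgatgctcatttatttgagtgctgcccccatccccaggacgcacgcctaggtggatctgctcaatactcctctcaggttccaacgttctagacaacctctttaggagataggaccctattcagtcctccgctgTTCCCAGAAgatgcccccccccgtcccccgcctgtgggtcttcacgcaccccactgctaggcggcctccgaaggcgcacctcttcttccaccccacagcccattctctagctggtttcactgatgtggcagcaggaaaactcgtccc
Psmb5, chr14:54617946-54618245, minus strand: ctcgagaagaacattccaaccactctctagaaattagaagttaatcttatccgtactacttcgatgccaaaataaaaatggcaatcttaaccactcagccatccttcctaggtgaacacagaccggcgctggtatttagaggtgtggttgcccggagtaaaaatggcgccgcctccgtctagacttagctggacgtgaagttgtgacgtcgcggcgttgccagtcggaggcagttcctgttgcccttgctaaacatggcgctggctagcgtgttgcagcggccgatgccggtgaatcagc

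A total of 6 motifs were searched on both strands. They were the core of the interferon-stimulated response element (GAAANNGAAA), the gamma-activated site (TTCNNNGAA), the kappaB motif, the GC box (GGGCGG), the CCAAT box (CCAAT) and the TATA box (TATAAA). Psmb8 held TTCCCAGAA, which fits the gamma-activated site, at position -97 from the start site and TATAAA at -237. The interval shared by Psmb9 and Tap1 held 1 GC box and 1 CCAAT box, at -176 and -222 from the Tap1 start and at -55 and -8 from the Psmb9 start. Tapbp held a GC box at -51 and CCAAT boxes at -248 and -165. None of the 6 motifs was found in the windows of Psmb5 and Psmb10. Among 32851 RefSeq windows of the same length, 8.30% held the gamma-activated site, 3.44% the interferon response core, 8.46% the kappaB motif, 35.7% the GC box, 37.4% the CCAAT box and 13.6% the TATA box. A match is a string of letters and is not a measured site.

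The samples differed in depth and in level. Total counts ran from 76784 in WT 6 to 244561 in WT 4, and from 168454 to 198541 in the Atg5BECKO samples. On the first principal component of the tested genes, which held 57.1% of the variance, WT 4 stood apart at -13.34, whereas the rest ran from -3.41 to 6.28. The median log2 value of the tested genes was 6.59, 6.41 and 6.81 in WT 1, 4 and 6, and 6.96, 6.95 and 7.04 in Atg5BECKO 2, 3 and 5. Taken gene by gene, which is another measure, the median of the log2 fold changes was 0.24. Without WT 4 that median was 0.11, and 60.7% of all tested genes had a positive fold change. All 11 endothelial identity genes were tested, and their mean log2 value was 10.86 ± 0.19 in Atg5BECKO and 10.78 ± 0.03 in WT (SD, n = 3). In sorted bulk cells, fewer cells of a type and less RNA per cell cannot be told apart.

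Comparing Atg5BECKO with WT TECs, 6 of the 7 tested genes had a positive log2 fold change, where 74.4% of all 379 tested genes did, and Psmb5 had a negative one. Psmb8, Tap1, Tap2 and Tapbp were higher in every Atg5BECKO sample than in any WT sample, which was the case for 25.6% of all tested genes. None of the 7 passed an adjusted p under 0.05 in limma, as did none of all tested genes (0%), of which 58 were higher at an unadjusted p under 0.05, and with voom 20 of all genes but none of the 7 passed. The differences of the 6 genes were small, between 0.22 for Psmb10 and 0.50 for Tap1 on the log2 scale, or between 1.17-fold and 1.42-fold. Their median was 0.41, against 0.24 over all tested genes. This gap of 0.17 depended on single samples and was 0.06 without Atg5BECKO 5, 0.08 without WT 1 and 0.26 without Atg5BECKO 3. The plot of all 8 genes by sample shows these values.

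**Figure D1:**
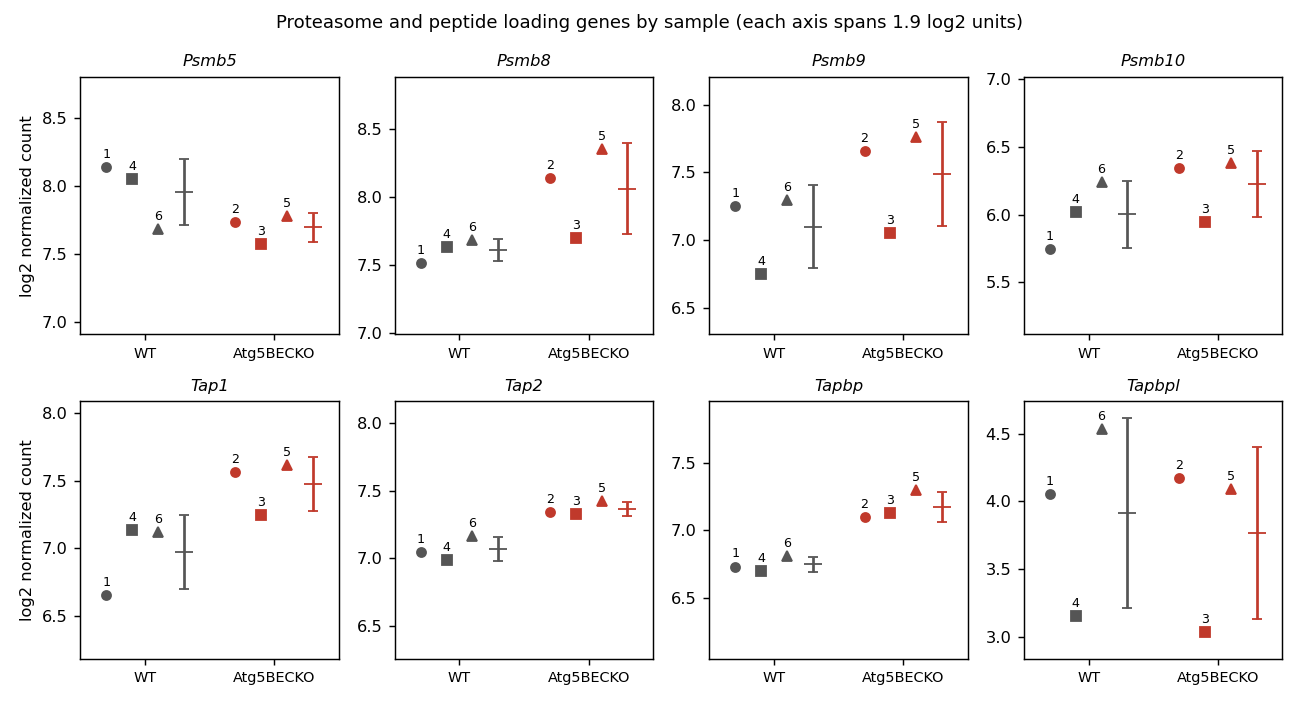
Log2 normalized counts of the 8 genes (y axis) in WT and Atg5BECKO samples (x axis), with the replicate number above each point and the mean and SD (n = 3) as a bar beside each group. Psmb8, Tap1, Tap2 and Tapbp do not overlap between groups, Psmb5 is the gene with the higher WT mean among those tested, and Tapbpl spreads widely within both groups.

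Psmb5 encodes the beta subunit that carries the chymotrypsin-like activity of the standard proteasome, and it was the constitutive subunit measured here. Its log2 normalized count was 8.14 in WT 1, 8.05 in WT 4 and 7.68 in WT 6, and 7.74, 7.57 and 7.78 in Atg5BECKO 2, 3 and 5. WT 1 and WT 4 were the highest samples, while WT 6 lay among the Atg5BECKO samples, so that the groups overlapped. The means were 7.96 ± 0.24 in WT and 7.70 ± 0.11 in Atg5BECKO (SD, n = 3), and the log2 fold change was -0.26 (SE 0.20, 95% interval -0.73 to 0.20, limma adjusted p = 0.557). Of the other tested genes, 353 had a higher fold change than Psmb5 and 25 a lower one. Relative to the median of all genes its difference was -0.50. Without WT 6, the sample with the fewest counts, the groups of Psmb5 no longer overlapped and its fold change was -0.40, with 7.92% of all genes then lower in every Atg5BECKO sample. Without WT 1 it was -0.17.

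Psmb8 encodes the immunoproteasome subunit that takes the place of the Psmb5 product, so that these genes form a matched inducible and constitutive pair. Psmb8 measured 7.52, 7.63 and 7.68 in WT 1, 4 and 6, and 8.14, 7.70 and 8.36 in Atg5BECKO 2, 3 and 5. The WT samples lay close together, and the Atg5BECKO samples lay above them, with replicate 3 only just above WT 6 and replicates 2 and 5 further up. The log2 fold change was 0.45 (SE 0.22, 95% interval -0.06 to 0.97, limma adjusted p = 0.351), and 99 of the other tested genes had a larger one.

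Psmb9 encodes the inducible subunit that replaces the one with caspase-like activity. Its values were 7.25, 6.75 and 7.29 in WT 1, 4 and 6, and 7.66, 7.05 and 7.76 in Atg5BECKO 2, 3 and 5. The groups overlapped because Atg5BECKO 3 lay below WT 1 and WT 6, and WT 4 was the lowest sample. The fold change was 0.39 (SE 0.27, limma adjusted p = 0.482). Psmb10 encodes the inducible subunit that replaces the one with trypsin-like activity, and it was at 5.75, 6.02 and 6.24 in WT 1, 4 and 6 and at 6.34, 5.95 and 6.38 in Atg5BECKO 2, 3 and 5. Again Atg5BECKO 3 lay inside the WT range, and the fold change of 0.22 (SE 0.22, limma adjusted p = 0.664) was -0.02 from the median of all genes. Leaving out 1 sample moved the fold change of Psmb9 to as little as 0.21 (without WT 4) and as much as 0.61 (without Atg5BECKO 3). For Psmb10 these extremes were 0.10 (without WT 1) and 0.36 (without Atg5BECKO 3). Without Atg5BECKO 3, the groups of both genes did not overlap, and all 6 genes other than Psmb5 were then higher in each Atg5BECKO sample, with 34.0% of all tested genes.

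Tap1 and Tap2 encode the partner chains of the peptide transporter, which works only as a pair. Tap1 measured 6.66, 7.13 and 7.12 in WT 1, 4 and 6, and 7.56, 7.25 and 7.61 in Atg5BECKO 2, 3 and 5. WT 1 lay well below the other WT samples, and the lowest Atg5BECKO sample, replicate 3, was a little above WT 4. Its fold change of 0.50 (SE 0.22, 95% interval -0.01 to 1.02, limma adjusted p = 0.305) was the largest of the 7, and 89 of the other tested genes had a larger one. Tap2 was at 7.05, 6.99 and 7.16 in WT 1, 4 and 6, and at 7.34, 7.32 and 7.42 in Atg5BECKO 2, 3 and 5. The samples of each group lay close together, and the groups did not overlap. The fold change was 0.30 (SE 0.16, 95% interval -0.09 to 0.68, limma adjusted p = 0.383), which was 0.06 above the median of all genes.

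Tapbp is the gene of tapasin, which bridges the transporter and the class I chain. It measured 6.73, 6.70 and 6.81 in WT 1, 4 and 6, and 7.10, 7.13 and 7.30 in Atg5BECKO 2, 3 and 5. The WT samples lay close together, and the lowest Atg5BECKO sample lay above them. The fold change was 0.43 (SE 0.17, 95% interval 0.03 to 0.82, limma adjusted p = 0.264). It was the only one of the 7 with an unadjusted p under 0.05 and a positive fold change, a share that was 15.3% over all tested genes. The study set its thresholds at a log2 fold change of 0.7 and a p of 0.05, which were applied here to the size of the change and to the unadjusted limma p. By that rule none of the 7 was called, and 10.8% of all tested genes were called higher.

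Tapbpl encodes a tapasin relative that edits peptides on class I outside the loading complex. It was counted only 18, 14 and 12 times in WT 1, 4 and 6, and 20, 8 and 18 times in Atg5BECKO 2, 3 and 5. Its log2 values were 4.06, 3.15 and 4.54 in WT and 4.17, 3.04 and 4.09 in Atg5BECKO, in the same order of samples. The mean over the 371 low-signal genes was 3.97, 3.27 and 4.45 in the WT samples and 4.08, 3.76 and 4.14 in the Atg5BECKO samples, so that Tapbpl lay near or below that mean in every sample. Its difference between groups was -0.15, with an exact permutation p of 0.7 (two-sided, 3 against 3), and at this depth no difference was detectable.

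**Figure D2:**
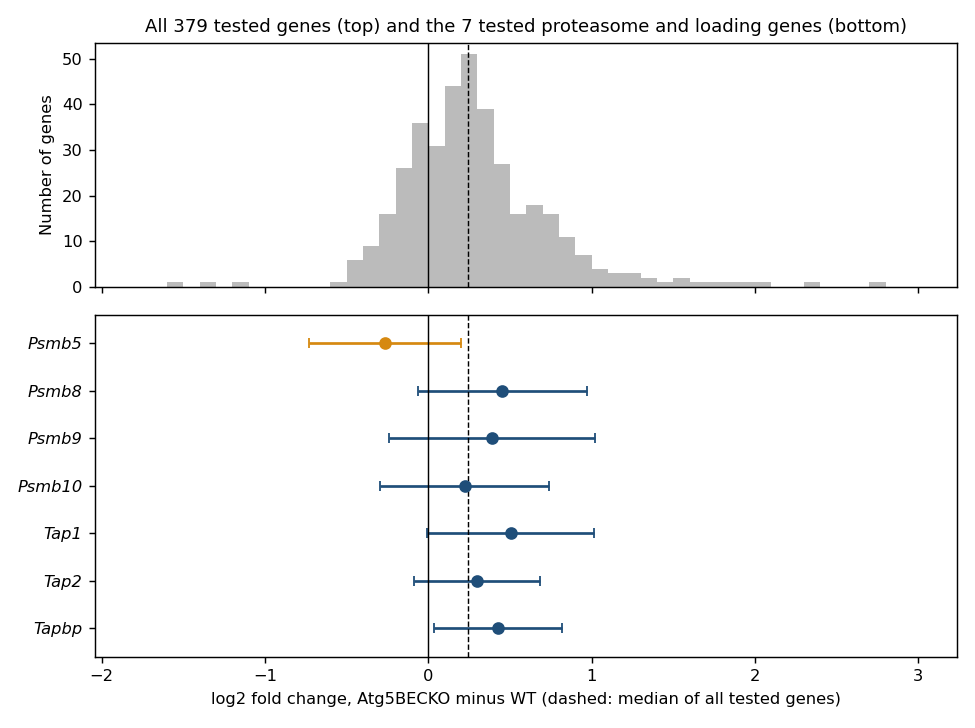
Histogram of the log2 fold changes of all 379 tested genes (top, y axis in genes) and the fold changes of the 7 tested genes with 95% limma intervals (bottom, points and bars), on 1 shared log2 axis of Atg5BECKO minus WT. The dashed line is the median of all tested genes at 0.24, the interval of Tapbp alone excludes 0, and Psmb5 is the gene left of 0.

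A 3 against 3 comparison cannot reach an exact two-sided permutation p below 0.1, which is the value of each of the 4 genes without overlap. Counts of the 7 tested genes ran from 39 to 418, which gives a counting SD of 0.07 to 0.23 on the log2 scale, and 0.14 to 0.23 in WT 6. These SDs cover counting error only. For Psmb9 and Psmb10 the SD between samples of a group, from 0.24 to 0.38, was thus above the counting SD. For Tap2 and Tapbp it was 0.05 to 0.11 and below the counting SD of these genes. The nearest samples of the groups for Tapbp were WT 6 at 6.81 and Atg5BECKO 2 at 7.10, with counting SDs of 0.19 and 0.12. For Tap2 they were WT 6 at 7.16 and Atg5BECKO 3 at 7.32 (0.17 and 0.12). For Tap1 they were WT 4 at 7.13 and Atg5BECKO 3 at 7.25 (0.10 and 0.12). For Psmb8 they were WT 6 at 7.68 and Atg5BECKO 3 at 7.70 (0.14 and 0.10).

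The design allows the inducible and loading genes to be set against Psmb5 within each sample, where the factor that scales the sample cancels. Each of the 6 genes had a higher ratio to Psmb5 in Atg5BECKO than in WT on average, by 0.49 to 0.77 on the log2 scale, and so did 93.4% of all 378 genes set against Psmb5 in this way. The probes differ in efficiency, so that a ratio has no meaning as a level, and only its difference between samples is read. None of the 6 passed an adjusted p under 0.05, and none of all 378 genes did (0%), of which 88 were higher at an unadjusted p under 0.05.

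The log2 ratio of Psmb8 to Psmb5, the exchange pair, was -0.62, -0.42 and 0.00 in WT 1, 4 and 6, and 0.40, 0.13 and 0.58 in Atg5BECKO 2, 3 and 5. WT 6, in which both genes had 106 counts, lay closest to the Atg5BECKO samples, and the groups did not overlap, as for 32.5% of all genes. The difference was 0.72 (SE 0.28, 95% interval 0.07 to 1.36, limma adjusted p = 0.182). For Tap1 over Psmb5 the values were -1.48, -0.92 and -0.56 in WT 1, 4 and 6, and -0.17, -0.32 and -0.17 in Atg5BECKO 2, 3 and 5. All Atg5BECKO samples were above all WT samples, by 0.77 on average (SE 0.30, limma adjusted p = 0.182). Tapbp over Psmb5 was -1.41, -1.35 and -0.87 in WT 1, 4 and 6, and -0.64, -0.44 and -0.48 in Atg5BECKO 2, 3 and 5, again without overlap and with WT 6 nearest, and its difference was 0.69 (SE 0.27, limma adjusted p = 0.180).

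Tap2 over Psmb5 differed by 0.56 (SE 0.27, limma adjusted p = 0.226), also with no overlap, from -1.09 to -0.52 in WT and from -0.40 to -0.25 in Atg5BECKO. The ratios of Psmb9 and Psmb10 overlapped, because WT 6 lay above Atg5BECKO 3 in both. Their differences were 0.65 (SE 0.32, limma adjusted p = 0.226) and 0.49 (SE 0.31, limma adjusted p = 0.333). At an unadjusted p under 0.05, 3 of the 6 ratios were higher (Psmb8, Tap1 and Tapbp), against 23.3% of all genes. At the thresholds of the study, 2 of the 6 (Psmb8 and Tap1) were called higher, against 20.4%. The median difference of the 6 was 0.67 and that of all 378 genes 0.50, the same distance as between the 6 genes and all genes before the division, since the same Psmb5 values are subtracted from every gene.

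**Figure D3:**
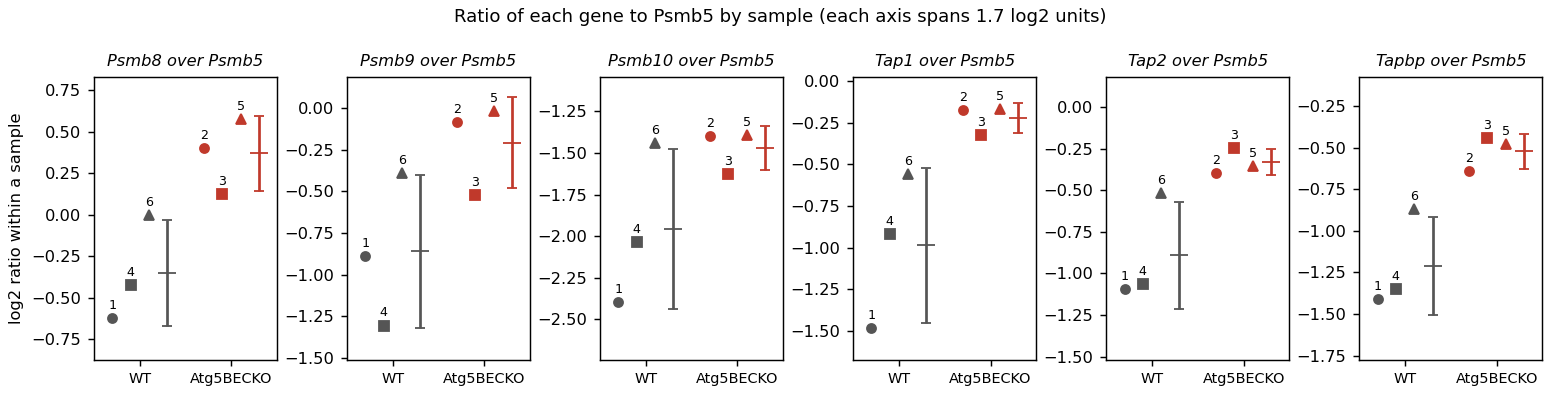
Log2 ratio of each of 6 genes to Psmb5 within a sample (y axis) for WT and Atg5BECKO (x axis), with replicate numbers above the points and the mean and SD (n = 3) as bars. Psmb8, Tap1, Tap2 and Tapbp do not overlap between groups, and WT 6 is the WT sample nearest to the Atg5BECKO samples in all 6 panels.

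WT 6 decided how these ratios stood against the threshold. Without it, all 6 ratios passed an adjusted p under 0.05 in limma (adjusted p from 0.0248 to 0.0422), together with 149 of all 378 genes (39.4%). Without any other single sample none of the 6 passed.

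The 6 genes other than Psmb5 shared their highest sample but not their lowest. Atg5BECKO 5 was the highest of the 6 samples for each of them. It also had the highest median of all tested genes (7.04), and the share of all genes that were highest in it was not counted. Atg5BECKO 3 was the lowest Atg5BECKO sample for Psmb8, Psmb9, Psmb10, Tap1 and Tap2, and only for Tapbp was it replicate 2. The likeness of a pair was measured as the root mean squared difference of the log2 values over the 6 samples, each gene centred on its mean. Tap2 and Tapbp were most alike (0.08), followed by Psmb8 and Tap1 (0.14), and pairs with Psmb5 were furthest apart (0.34 to 0.47).

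Psmb9 and Tap1, the neighbours with the shared upstream interval shown above, were the least alike of the pairs without Psmb5 (0.31). The log2 ratio of Psmb9 to Tap1 was 0.60 in WT 1, -0.39 in WT 4 and 0.17 in WT 6, and 0.09, -0.20 and 0.15 in Atg5BECKO 2, 3 and 5. The widest gap was thus within WT, between 165 and 109 counts in WT 1 and 169 and 221 counts in WT 4, where the counting SD of the ratio was 0.18 and 0.15. The groups overlapped, and the mean ratio differed by -0.11 (exact permutation p = 0.8, two-sided, n = 3 per group). Tapbp over Tap2 was -0.31, -0.29 and -0.35 in WT 1, 4 and 6 and -0.24, -0.20 and -0.12 in Atg5BECKO 2, 3 and 5. That ratio did not overlap, but its difference of 0.13 (exact permutation p = 0.1, the smallest possible) was about the size of the counting SD of either gene.

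By the same measure, the tested genes outside the set that were most like the mean of the 6 were Stat2 (0.08), Parp12 (0.10), Isg15 (0.10), Smad5 (0.10) and Zeb1 (0.10), where the median of all other genes was 0.35. Stat2 encodes a transcription factor of the type I interferon response, Isg15 an interferon-induced ubiquitin-like protein, and Smad5 a transducer of BMP signals. Among the genes most like Psmb5 were Ccnd3 (0.11), Ptpn11 (0.11), Elob (0.12) and Cdh5 (0.13), with a median of 0.45 over all other genes. Cdh5 encodes VE-cadherin, a junction protein of endothelial cells, and Ccnd3 encodes a D-type cyclin. These values describe 6 samples that share the same scaling factors.

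A total of 4 class I chains, which receive the peptides, had larger fold changes than any of the 7 genes. Of 8 listed chains 6 were tested, all with positive fold changes and a median of 0.76. H2-K1 (1.06), H2-D1 (0.71), H2-T23 (0.96) and B2m (0.80), the light chain of class I, passed the thresholds of the study (10.8% of all tested genes) and were higher without overlap between groups (25.6%), with adjusted p from 0.129 to 0.185 in limma. The difference in fold change between the chains and the loading genes was not tested.

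Of 16 listed regulators of these genes 12 were tested, 10 with a positive fold change and a median of 0.31, near the 0.24 of all genes. Irf1, a transcription factor that interferon gamma induces and that binds upstream of class I pathway genes, was the only one called at the thresholds of the study, against 10.8% of all tested genes. It measured 7.82, 7.71 and 8.34 in WT 1, 4 and 6 and 8.72, 8.77 and 8.91 in Atg5BECKO 2, 3 and 5, with a clear gap between groups and a fold change of 0.84 (SE 0.22, limma adjusted p = 0.145). Next by p were Rela (0.40), an NF-κB subunit, Ifnar1 (0.36), a chain of the type I interferon receptor, and Jak1 (0.35), a kinase of interferon receptors. In all, 6 of the 12 were higher without overlap between groups (Irf1, Jak1, Ifngr1, Ifnar1, Rela and Nfkb1), against 25.6% of all tested genes. Nlrc5, Ifng and Socs1 were among those left out by the low-signal filter. Nlrc5, the transactivator of class I genes, was at 4.14, 4.10 and 4.76 in WT 1, 4 and 6 and at 5.76, 4.90 and 5.97 in Atg5BECKO 2, 3 and 5. Atg5BECKO 3 was again the lowest of its group, and the groups did not overlap, as for 13.7% of all 750 genes that were higher in this way. The mean of the low-signal genes was 3.97, 3.27 and 4.45 in WT 1, 4 and 6, so that Nlrc5 was a weak signal there.

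Leukocytes express the inducible subunits strongly, and their markers were therefore read in the same samples. Only 3 of 25 leukocyte markers (Ms4a1, Csf1r and Ncr1) passed the low-signal filter, and none of the 25 was at 0 counts in any sample. The summed normalized count of the 25 was 454 to 588 in Atg5BECKO and 297 to 813 in WT, so that the Atg5BECKO samples lay inside the WT range. WT 4 was lowest and WT 6 highest, as they were for the mean of the low-signal genes (3.27 and 4.45). No background had been subtracted, so that this sum cannot tell leukocyte RNA from background. Of 7 fibroblast and mural cell markers 3 were tested (Thy1, Col6a3 and Olfml2b), and all 3 were lower in every Atg5BECKO sample than in any WT sample, a share that was 2.11% over all tested genes. The 4 left out by the filter overlapped between groups. Of these, Pdgfrb (-0.93) and Col5a1 (-0.83) were lower on average in Atg5BECKO, while Fap (0.17) and Cdh11 (0.32) were higher. The summed normalized count of the 7 was 192 to 286 in Atg5BECKO and 300.05 to 796 in WT, with WT 6 the lowest of WT. The melanocyte markers, of which Mlana was tested, summed to 32.9 to 53.2 in Atg5BECKO and 36.9 to 85.1 in WT. The summed fibroblast and mural count and Psmb5 thus were both lowest in WT 6 among the WT samples, although Fap and Cdh11 were not. The part of these cells in the result was not tested.

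The size of the fold changes depended on how samples were scaled, as the plot of the 7 genes under each scaling shows. The deposited values were scaled to housekeeping genes. When each sample was centred on the median of its tested genes, the median of all genes moved to -0.14 and that of the 6 genes to 0.03, and with quantile normalization to -0.05 and 0.09. None of the 6 was then higher without overlap, against 8.44% and 8.18% of all genes, and the split of all genes without overlap went from 97 higher and 8 lower to 32 and 49, and to 31 and 41. Scaled to the endothelial identity genes, the medians were 0.15 and 0.32, Tapbp alone did not overlap (16.4% of all genes higher, 62 higher and 13 lower), and all 6 fold changes were positive.

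Psmb5 lay below the median of all genes under every setting run, from -0.33 to -0.74. Its fold change was -0.64 with median centring (limma adjusted p = 0.31) and -0.59 with quantile normalization (limma adjusted p = 0.27). Under both it was lower in every Atg5BECKO sample than in any WT sample, as were 12.9% and 10.8% of all genes. The deposited scale itself rests in part on a proteasome gene, since Psmc4, which encodes an ATPase of the regulatory particle, was among the housekeeping genes used for it, and its values were not analysed here.

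**Figure D4:**
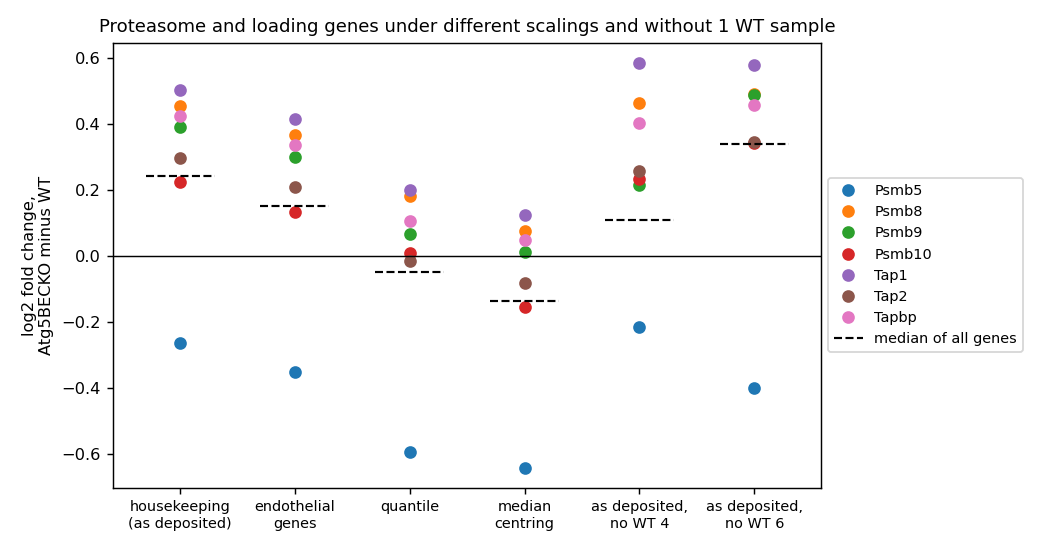
Log2 fold change (y axis, Atg5BECKO minus WT) of the 7 tested genes under 4 scalings and, on the deposited scale, without WT 4 or WT 6 (x axis), with a dashed bar for the median of all tested genes. In each column Tap1 is the highest of the 7 and Psmb5 the lowest, below the median of all genes, while with median centring Psmb10 and Tap2, and with quantile normalization Tap2, lie below 0.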

How the data were processed

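Barcoded NanoString nCounter probes were hybridized to 10 ng of TEC RNA per sample and counted without amplification. The authors scaled the counts in nSolver 4.0 by 1 housekeeping factor per sample and deposited them on the log2 scale, and no background had been subtracted. Housekeeping and control probes were not used here. The panel is named in the methods as PanCancer Mouse Immune Profiling, but whether it was the one run is not settled here. The study's comparison table, which holds fold changes and p-values, served only for the names of the 379 genes that passed its low-signal filter. Whole counts were recovered from the deposited values (100% whole within 0.01), and they set the depth of 76784 to 244561 per sample.

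Sample titles gave the groups and the replicate numbers. In R 4.3.3, lmFit and eBayes of limma 3.58.1 compared the log2 values (two-sided, Benjamini-Hochberg over all tested genes), once per gene and once after subtracting Psmb5 within each sample, and the fit was tested on simulated data. Exact permutation tests used scipy 1.17.1, and figures matplotlib 3.10.9. A gene was called at an adjusted p under 0.05, and separately by the thresholds of the study. Named genes are all 8 members, up to 4 genes by p of the lists of class I chains and regulators, and the 5 genes most like the mean of the members or Psmb5. Some genes that these rules take are not reported here. Nlrc5 was named after its values were seen. The members and lists were chosen with earlier results of these data known.

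Other settings tried were voom on the recovered counts, the methods' t-test, an intensity trend or robust eBayes in limma, a pseudocount of 10, scaling by quantiles, by sample medians or by the endothelial identity genes, all 750 genes or those with a mean log2 value from 6 up, and each sample left out in turn. Promoter windows are those of RefSeq, GRCm38.p6, matched by symbol for 6 of the 8 genes.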

Additional observations from a re-analysis of the deposited data

How the results depend on the processing

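Of 112 alternative fold changes of the 7 tested genes 109 kept their direction, as did all 78 ratios to Psmb5. Settings that change only the gene filter or the test leave a fold change or ratio as it is, so that part of these values could not turn. The ratios were not run with median centring, quantile normalization or endothelial scaling. Median centring and endothelial scaling shift every gene of a sample alike and cancel in a ratio, whereas quantile normalization could change it. Psmb10 turned to -0.16 with median centring, and Tap2 to -0.082 with median centring and -0.015 with quantile normalization, where the median of all genes also turned. No gene of the set passed an adjusted p under 0.05 in any of the 16 alternatives of the comparison by gene (lowest 0.15), although 18 of all tested genes did without WT 6 and 20 with voom. At an unadjusted p under 0.05, 0 to 4 of the 7 were called when a sample was left out, 4 of them without Atg5BECKO 3 (14.2% of all genes), and 3 with voom (24% of all genes). The number of genes higher without overlap, 4 as deposited, was 0 with median centring, 0 with quantile normalization, 1 with endothelial scaling, and 4 to 6 when a sample was left out, where 26.6% to 39.8% of all genes were higher without overlap.

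For the ratio to Psmb5, the number at the thresholds of the study, 2 in the report, was 0 with no filter (9.88% of all genes), 1 with a pseudocount of 10 (20.6%), 4 with voom (30.4%), and 0 to 6 when a sample was left out (11.4% to 46.3%), with 6 only without WT 6 (46.3%). The number at an adjusted p under 0.05 was 6 without WT 6 (39.4% of all genes) and 0 in every other alternative. With voom it was 0 as well, although 38 of all 378 genes passed. The sources of these changes were not tested. No paired analysis was possible because the groups share no replicate number. Counts of 8 to 20 over all samples limit Tapbpl, and the 76784 counts of WT 6 limit every comparison that turns on that sample.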
